A study of Mus musculus with 46 samples.

Results

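Gnas and Nespas, 2 genes of one imprinted locus on mouse chromosome 2, were followed in the dorsal raphe nucleus of young and adult F1 hybrid females. They were taken by name, through their Ensembl identifiers (ENSMUSG00000027523 for Gnas and the identifier annotated as Nespas), and are 2 of the 15499 genes in the count tables. The dorsal raphe nucleus is the midbrain cell group that holds many of the brain's serotonin neurons. The animals were hybrids of the C57 and CAST strains from reciprocal crosses labelled F1i and F1r, whose mothers' strain the labels leave unnamed. Each cross gave 7 libraries at P5 (postnatal day 5), 7 at P15 and 9 from adults, so every library carried 1 C57 and 1 CAST copy of each autosomal gene and no group carried a mutation or a treatment.

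An imprinted gene is transcribed mainly from the copy inherited from 1 parent, and the choice is set by DNA methylation laid down in the germ line. The Gnas locus is unusual because its alternative first exons are imprinted in opposite directions and splice to common downstream exons. In general knowledge of the locus, the Nesp first exon, which encodes the secretory granule protein NESP55, is used on the maternal copy, and the first exon of the extra-large G protein subunit XLαs is used on the paternal copy. The first exon of Gsα, the subunit that couples hormone and neurotransmitter receptors to adenylyl cyclase and so to cyclic AMP, is used on both copies in most tissues. Nespas is a noncoding transcript that starts near the XLαs exon and runs on the opposite strand across the Nesp exon; it is known as paternally expressed and is needed for silencing of Nesp on its own chromosome.

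The 2 genes share sequence, which limits what their counts can separate. In the GENCODE M21 annotation of build GRCm38, Gnas lies on the plus strand at chr2:174284320-174346744 with 24 transcripts. Nespas lies on the minus strand at chr2:174281237-174295436 with 3 transcripts. Their spans share 11117 bases. Of the 3143 exon bases of Nespas, 988 lie inside Gnas exons, which is 31.4% of Nespas and 8.8% of the 11186 exon bases of Gnas. The first 60 coding bases of the 3 Gnas first exons, are shown because they tell the 3 products of Gnas apart, and the matching stretch of Nespas is shown because it is the complement of the Nesp exon; capitals mark the start codon of the open reading frame, or its complement on the Nespas strand. The first 60 bases are at chr2:174284674-174284733 for Nesp, at chr2:174297862-174297921 for XLαs and at chr2:174330296-174330355 for Gsα, all on the plus strand.
Nesp: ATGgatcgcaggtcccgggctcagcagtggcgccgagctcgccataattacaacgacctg
XLalphas: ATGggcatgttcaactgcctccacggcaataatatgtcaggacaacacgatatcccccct
Gsalpha: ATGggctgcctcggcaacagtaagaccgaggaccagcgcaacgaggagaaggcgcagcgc
Nespas: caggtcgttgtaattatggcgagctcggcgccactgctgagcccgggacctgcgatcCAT
The Nespas stretch covers the same coordinates as the Nesp stretch on the minus strand, so it lies within an exon of both genes.
The deposited tables hold 1 count for each gene and allele and no coordinates. A Gnas count can therefore come from Nesp, XLαs, Gsα or the common exons. The strand that was counted is not given in the sources used here, so reads of Nespas and of the Nesp exon cannot be told apart.

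The 46 libraries held between 3692778 and 13085952 allele-assigned counts. The serotonin neuron markers Tph2, Slc6a4 and Fev were counted in every group. In F1i and F1r, Tph2 had group medians of 94.5 and 118 CPM at P5, 559 and 584 CPM at P15, and 553.5 and 504.5 CPM in adults. Levels are in CPM, the C57 plus CAST count relative to the library's total count. Only counts assigned to an allele enter, so a level is not the whole expression of a gene. No 2 libraries of a group were so alike that they could be 1 library deposited more than once, the smallest χ2 per degree of freedom between libraries of a group being 1.25. The labels do not say whether the 2 numbers of an adult library mark animals or repeats, and p-values measure the spread between these libraries. In tissue RNA, fewer cells that express a gene and less RNA in each cell cannot be told apart. Each age has its own deposited table and its own libraries, so a change with age cannot be told apart from a batch. Libraries were also less alike at the later ages. The largest χ2 per degree of freedom in F1i and F1r was 1.82 and 2.42 at P5, 19.92 and 14.89 at P15, and 34.6 and 15.14 in adults.

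Meg3 and Peg3, genes with known imprinting, gave the orientation of the crosses. Meg3, a noncoding RNA known to be made from the maternal copy, had 98.2% to 99.95% of its counts on the CAST allele in F1i and on the C57 allele in F1r, in 46 of 46 libraries. Peg3, a zinc finger gene known to be expressed from the paternal copy, had 0.0546% to 4.37% of its counts on those alleles. The CAST allele in F1i with the C57 allele in F1r is called the Meg3 side below, and the C57 allele in F1i with the CAST allele in F1r is called the Peg3 side.

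Gnas was counted mainly on the Peg3 side in every library and at every age, and the preference became smaller with age. The CAST share of its counts at P5 was lowest at 2.46%, had a median of 6.10% and was highest at 7.62% in F1i. In F1r it was lowest at 92.6%, had a median of 94.9% and was highest at 98.0%. At that age the crosses did not overlap. At P15 the F1i libraries ran from 7.27% through a median of 14.2% to 23.7%, and the F1r libraries from 83.3% through 90.2% to 94.6%. All F1i libraries lay below 50% and all F1r libraries above it, with a wide gap between the crosses. In adults the shares ran from 13.8% through 21.1% to 36.4% in F1i and from 79.6% through 84.8% to 94.8% in F1r. Mean CAST shares of Gnas moved from 5.45% ± 2.09 (SD, n = 7) at P5 to 14.2% ± 6.25 (SD, n = 7) at P15 and 21.5% ± 6.84 (SD, n = 9) in adults in F1i. In F1r they moved the other way, from 95.1% ± 1.82 to 89.3% ± 3.93 and 85.0% ± 4.58, so that the share moved toward 50% in both crosses. Gnas counts sum over its transcripts, and the part of a changed mix of transcripts in this move was not tested.

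Nespas was counted almost wholly on the Meg3 side, opposite to Gnas and to the paternal expression for which Nespas is known. Its mean CAST share in F1i was 99.4% ± 0.689 (SD, n = 7) at P5, 99.5% ± 0.276 (SD, n = 7) at P15 and 99.7% ± 0.207 (SD, n = 9) in adults. In F1r it was 0.102% ± 0.270, 0.682% ± 0.348 and 0.122% ± 0.191. The lowest share of any F1i library was 98.1% and the highest of any F1r library was 1.40%, so the crosses were fully apart. The other allele had 0 to 4 counts in a library. Summed over libraries it had 5 of 932 counts in F1i and 1 of 1045 in F1r at P5. At P15 it had 11 of 2091 and 12 of 1676 counts, and in adults 7 of 2977 and 4 of 3205. The side on which these counts lie is that of Nesp in the general account of the locus. Whether they are reads of Nesp or of Nespas was not tested, since the tables give no strand and no position. Every Nespas value in the text is that of the counts under this identifier, not of the antisense RNA as such.

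**Figure D1:**
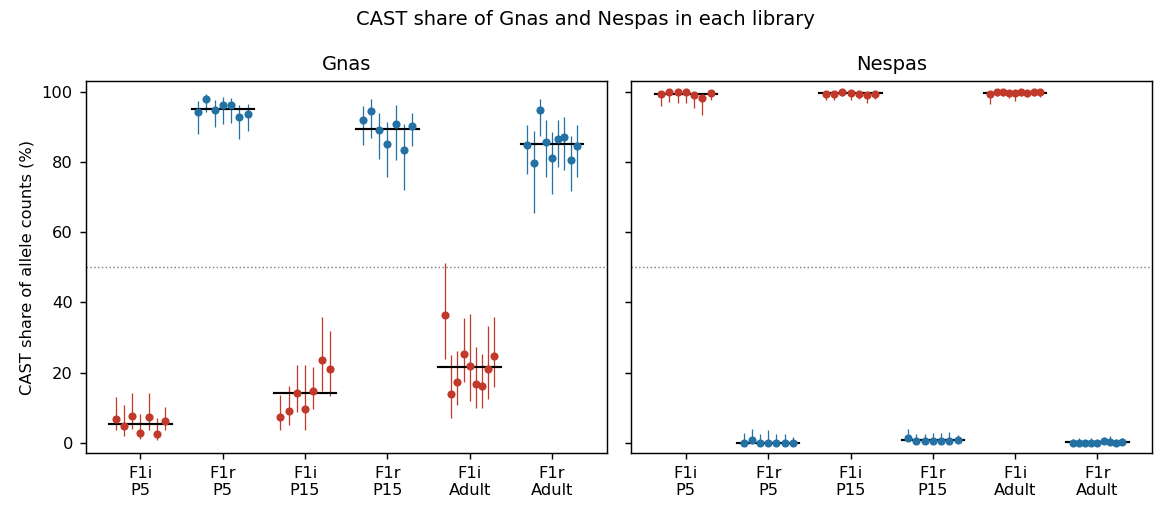
CAST share of the allele counts of Gnas (left) and Nespas (right), in percent, for each library by cross and age; bars are 95% Wilson intervals for counting error, black lines are group means, and the dotted line is 50%. Gnas moved from 5.45% to 21.5% in F1i and from 95.1% to 85.0% in F1r between P5 and adulthood, while Nespas stayed above 98% in F1i and below 2% in F1r.

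The parental effect measures this preference within each age. It is the difference between the crosses in the log2 ratio of CAST over C57 counts, halved, so that a positive value lies on the Meg3 side and strain differences cancel. For Gnas it was -4.17 ± 0.10 (SE; edgeR adjusted p = 3.5e-36) at P5, where 2.71% of 12070 tested genes were called at an edgeR adjusted p under 0.05. At P15 it was -2.87 ± 0.11 (edgeR adjusted p = 3.5e-26), with 0.742% of genes called, and in adults -2.21 ± 0.10 (edgeR adjusted p = 1.6e-19), with 2.71% called. The Gnas preference was thus called at each age, on the side opposite to Nespas. For Nespas the effect was 8.22 ± 0.16 (edgeR adjusted p = 6.2e-41) at P5, 7.23 ± 0.10 (edgeR adjusted p = 5.2e-46) at P15 and 8.90 ± 0.10 (edgeR adjusted p = 2.8e-40) in adults. Each edgeR SE in the text is the size of the effect divided by the square root of its F statistic. Such an SE can understate the counting error of large effects, and does so for Nespas and, at P5 and P15, for Gnas. Because 0 to 4 counts stand on the minor allele of Nespas in a library, the size of the Nespas value rests on few reads. Leaving out 1 label number at a time gave Nespas values of 8.06 to 8.71 at P5, 7.08 to 7.37 at P15 and 8.54 to 9.29 in adults. An exact permutation test of the CAST share between crosses (two-sided) gave p = 0.000583 at P5 and at P15 and p = 4.11e-05 in adults for both genes, which is the smallest value that 7 against 7 and 9 against 9 libraries allow.

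The smaller preference in the summed Gnas counts was tested as a change of the parental effect between ages. From P5 to P15 the effect moved toward 0 by 1.30 ± 0.22 (edgeR adjusted p = 0.00011), where 0.172% of 11649 genes had a called change. From P5 to adulthood it moved by 1.97 ± 0.20 (edgeR adjusted p = 1.0e-11), with 0.258% of genes called. From P15 to adulthood the change of 0.66 ± 0.18 was not called (edgeR adjusted p = 0.24), with 0.137% called. Both steps were in the same direction, and they were not tested against each other. Counted over both crosses, the minor allele of Gnas had a share of 1.99% to 7.62% with a median of 5.47% in the 14 P5 libraries. At P15 it ran from 5.41% to 23.7% with a median of 10.4%, and 12 of 14 libraries lay above the highest P5 library. In adults it ran from 5.20% to 36.4% with a median of 17.1%, and 17 of 18 libraries lay above the highest P5 library. These shares rest on 3 to 21 minor-allele counts in a library, and the Wilson interval of 1 library is correspondingly wide, from 23.8% to 51.1% for the highest adult.

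The change of the Nespas preference with age depended on the test. With edgeR it was -1.04 ± 0.47 from P5 to P15 (edgeR adjusted p = 0.98), 1.55 ± 0.39 from P15 to adulthood (edgeR adjusted p = 0.17) and 0.52 ± 1.10 from P5 to adulthood (edgeR adjusted p = 1.0). None of these was called. With limma on the log2 ratio of each library, the changes up to adulthood were both 1.08 and both called, at limma adjusted p = 0.0075 from P15 and 0.0040 from P5. Without second number 2 of the adults both were 0.90 and not called (limma adjusted p = 0.15 and 0.12), and without first number 5 the change from P15 was 0.99 (limma adjusted p = 0.055). A prior count of 1 sets the ratio where the minor allele is at 0, and the summed counts behind it were 932 and 1045 at P5 against 2977 and 3205 in adults. The part of depth in that change was not tested.

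Each side of Gnas was then followed as a level of its own. This test was added after the data had been seen. On the Peg3 side, the major allele of Gnas had 17.6 ± 2.99 CPM in F1i and 20.5 ± 2.98 CPM in F1r at P5 (mean ± SD, n = 7 each), 13.5 ± 5.22 and 15.5 ± 4.05 CPM at P15, and 5.59 ± 1.69 and 6.89 ± 1.24 CPM in adults (n = 9 each). On the Meg3 side, the minor allele had 1.0 ± 0.393 and 1.03 ± 0.328 CPM at P5, 2.05 ± 0.701 and 1.79 ± 0.605 CPM at P15, and 1.43 ± 0.256 and 1.23 ± 0.471 CPM in adults. The 2 alleles followed different courses. The major allele fell by 0.43 ± 0.12 on the log2 scale from P5 to P15 (edgeR adjusted p = 0.0014), fell by 1.19 ± 0.13 from P15 to adulthood (edgeR adjusted p = 5.0e-12) and fell by 1.62 ± 0.12 from P5 to adulthood (edgeR adjusted p = 4.0e-18), where 77.8%, 68.3% and 77.3% of 13637 genes changed on this side. The minor allele rose by 0.87 ± 0.19 from P5 to P15 (edgeR adjusted p = 7.4e-05) and then fell by 0.53 ± 0.16 to adulthood (edgeR adjusted p = 0.0036), where 78.2% and 68.0% of genes changed. Between P5 and adulthood the minor allele was higher by 0.34 ± 0.18 and not called (edgeR adjusted p = 0.080), with 77.8% of genes called. The larger share of the minor allele in adults thus stood beside a major allele that had fallen, and at P15 beside a minor allele that had also risen. With RLE size factors or library totals in place of TMM scaling these changes kept their direction and their side of the threshold.

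**Figure D2:**
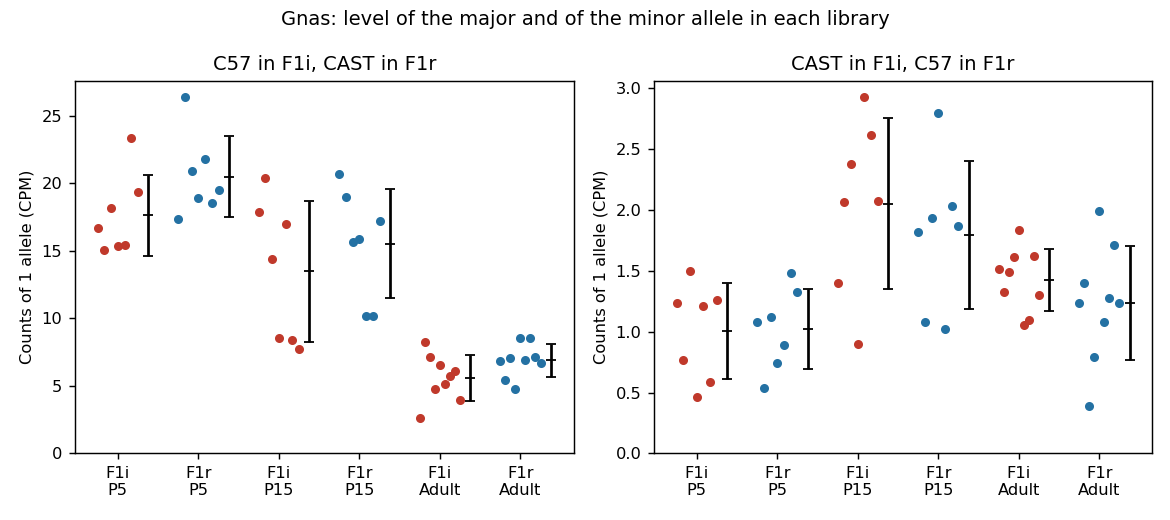
Level of the major allele of Gnas (left; C57 in F1i, CAST in F1r) and of its minor allele (right; CAST in F1i, C57 in F1r) in each library, in CPM, by cross and age, with group means and SD; the vertical scales differ. The major allele lay near 17.6 to 20.5 CPM at P5 and 5.59 to 6.89 CPM in adults, and the minor allele near 1.0 to 1.03 CPM at P5, 1.79 to 2.05 CPM at P15 and 1.23 to 1.43 CPM in adults.

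The strain of the allele mattered less than the parental side. The strain effect is the mean of the 2 crosses' log2 ratios of CAST to C57 counts. For Gnas it was 0.09 ± 0.16 at P5 (edgeR adjusted p = 0.64), 0.21 ± 0.14 at P15 (edgeR adjusted p = 0.19) and 0.29 ± 0.11 in adults (edgeR adjusted p = 0.024). The adult value was past the threshold, as were 67.8% of tested genes, against 58.4% at P5 and at P15. It was not called with DESeq2, at 0.30 (DESeq2 adjusted p = 0.058), or in 2 of 6 fits that left out 1 first label number of the adults, without number 2 (edgeR adjusted p = 0.067) and without number 5 (edgeR adjusted p = 0.069). Without second number 1 it was 0.19 (edgeR adjusted p = 0.24) and without second number 3 it was 0.23 (edgeR adjusted p = 0.13), neither called, and without second number 2 it was 0.44 (edgeR adjusted p = 0.0073). For Nespas the strain effect was -0.93 ± 0.49 at P5 (edgeR adjusted p = 0.10), 0.21 at P15 (edgeR adjusted p = 0.54) and -0.38 in adults (edgeR adjusted p = 0.36). None was called, and leaving out the replicates numbered 2 at P5 gave -1.59 (edgeR adjusted p = 0.016). For neither gene was a change of the strain effect called from P5 to P15, from P15 to adulthood or from P5 to adulthood, where 19.8%, 16.2% and 31.0% of genes had one.

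The levels of the 2 genes also went different ways with age, which cannot be told apart from a batch here. The summed CPM of Gnas at P5 was 15.8 at the lowest, 18.0 at the median and 23.9 at the highest in F1i, and 18.5, 20.8 and 26.9 in F1r. At P15 it ran from 9.44 through 16.8 to 22.5 in F1i and from 11.2 through 18.6 to 22.5 in F1r. In adults it ran from 4.17 through 6.81 to 9.59 in F1i and from 5.54 through 7.99 to 10.5 in F1r. The allele-assigned count of Gnas was therefore low in all adults. All P5 libraries lay above all adult libraries, and the P15 libraries ran from within the adult range to within the P5 range. This count sums over the products of Gnas and is not the level of Gsα alone. At P15, 3 F1i and 2 F1r libraries lay between 9.44 and 12.2 CPM and the other 9 between 16.8 and 22.5 CPM. The minor allele's share in the 5 low libraries was 9.52%, 23.7% and 21.1% in F1i and 9.09% and 16.7% in F1r, and in the other 9 it ran from 5.41% to 15%. Gnas fell by 0.32 ± 0.11 on the log2 scale from P5 to P15 (edgeR adjusted p = 0.0091), where 83.4% of 13637 genes changed. It fell by 1.09 ± 0.11 from P15 to adulthood (edgeR adjusted p = 7.0e-12), where 74.7% of genes changed. Over the whole interval it fell by 1.41 ± 0.11 (edgeR adjusted p = 1.2e-16), with 82.1% of genes called.

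Nespas, as counted under its identifier, rose and then fell in part. Its summed CPM at P5 was 18.3, 20.8 and 21.3 (lowest, median, highest) in F1i and 19.3, 24.96 and 28.5 in F1r. At P15 it was 42.4, 52.6 and 64.1 in F1i and 35.4, 46.1 and 56.6 in F1r. In adults it was 14.6, 41.3 and 52.8 in F1i and 23.8, 34.7 and 58.4 in F1r. Every P15 library lay above every P5 library, and the adult libraries ran from below the lowest P5 library into the range of P15. Nespas rose by 1.10 ± 0.12 from P5 to P15 (edgeR adjusted p = 2.8e-11) and fell by 0.42 ± 0.11 from P15 to adulthood (edgeR adjusted p = 0.00059). It stood 0.68 ± 0.12 above P5 in adults (edgeR adjusted p = 9.1e-07). The direction of each change in level held for both genes with DESeq2, with RLE or no further scaling, and in each fit that left out 1 replicate number of P5 or P15, or 1 first or 1 second number of the adults. The fall of Nespas after P15 varied in size with the second number: it was -0.20 ± 0.08 without number 1 (edgeR adjusted p = 0.028) and -0.61 ± 0.10 without number 2 (edgeR adjusted p = 1.3e-06). Myelin genes, the markers of mature oligodendrocytes, moved with age over the same interval. The summed CPM of the 7 measured myelin markers had group medians of 1995 and 2612 at P5, 22860 and 23670 at P15, and 8474 and 9910 in adults. The summed CPM of the astrocyte markers had group medians of 2891 and 3034 at P5, 5627 and 6496 at P15, and 6302 and 6326 in adults. The summed serotonergic markers had group medians of 528 and 576 CPM at P5, 1136 and 1160 at P15, and 1249 and 1200 in adults. That sum hides a split within the list from P5 to P15. With RLE size factors 5 of its 11 genes were called higher and 5 lower, with a median log2 change of -0.41. Of all 13637 genes, 5745 were called higher and 5624 lower with that scaling. Fev had medians of 45.8 and 54.9 CPM at P5 and 35.95 and 44.8 CPM at P15. The summed neuron markers had 4156 and 4153 CPM at P5, 3394 and 3534 at P15, and 3682 and 3877 in adults. With RLE size factors 3 of the 6 neuron markers were called higher from P5 to P15 and 3 lower, with a median log2 change of 0.04. None of the markers of these lists was at 0. Their part in the levels of Gnas and Nespas was not tested.

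**Figure D3:**
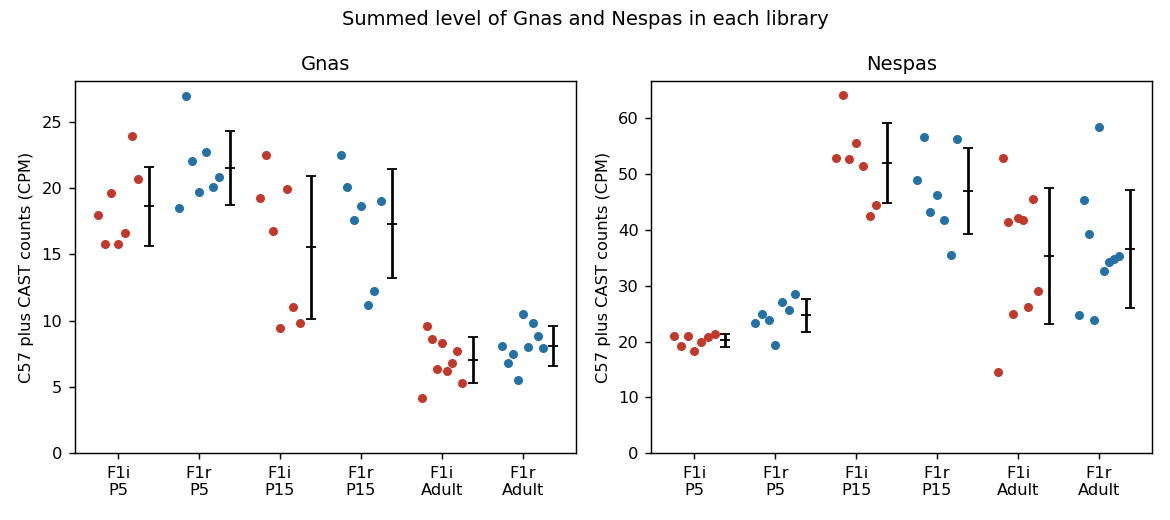
Summed C57 and CAST level of Gnas (left) and Nespas (right) in each library, in CPM, by cross and age, with group means and SD. Gnas fell from means of 18.6 and 21.5 CPM at P5 to 7.01 and 8.12 CPM in adults, and Nespas was highest at P15 with means of 51.9 and 46.9 CPM.

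The crosses differed in the level of Nespas at P5. Its summed level was 20.2 ± 1.13 CPM in F1i and 24.7 ± 2.98 CPM in F1r (mean ± SD, n = 7 each), a log2 difference of -0.28 ± 0.07 (edgeR adjusted p = 0.031), where 1.17% of 12919 genes were called. The groups overlapped in part, since the lowest F1r library, at 19.3 CPM, lay below 5 of the 7 F1i libraries. An exact permutation test of the CPM (two-sided) gave p = 0.0035. Leaving out both libraries of 1 replicate number kept the difference between -0.31 and -0.26, but without replicate number 2, 3, 5, 6 or 7 it was no longer called, with edgeR adjusted p from 0.057 to 0.16. Myelin markers were lower in F1i at the same age, with all 7 called and a summed range of 1762 to 2098 CPM against 2364 to 2950 CPM. Their part in the Nespas difference was not tested. At P15 the Nespas difference was 0.17 (edgeR adjusted p = 1.0), with 0.0467% of genes called, and in adults -0.05 (edgeR adjusted p = 0.97), with 0.111% called. Gnas differed by -0.20 at P5 (edgeR adjusted p = 0.39), -0.12 at P15 (edgeR adjusted p = 1.0) and -0.23 in adults (edgeR adjusted p = 0.65), none of them called.

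Adult libraries carry 2 numbers, and the level of Nespas moved with the second. For second number 1, Nespas stood at 21.9 ± 6.36 CPM in F1i and 27.6 ± 5.73 CPM in F1r (mean ± SD, n = 3 each). For number 2 it stood at 46.8 ± 5.44 and 46.1 ± 11.9 CPM, and for number 3 at 37.4 ± 7.14 and 35.7 ± 3.37 CPM. In F1i and in F1r alike, all 3 libraries with second number 2 lay above all 3 with second number 1. The Gnas level was 5.78 ± 1.41 and 7.82 ± 2.15 CPM for number 1, 8.55 ± 0.961 and 8.74 ± 1.85 CPM for number 2, and 6.71 ± 1.74 and 7.80 ± 0.274 CPM for number 3. F1i was lower than F1r in mean Gnas level within each number. The CAST share of Gnas for numbers 1, 2 and 3 was 25.9% ± 10.2, 18.9% ± 4.47 and 19.6% ± 4.39 in F1i and 85.8% ± 1.13, 80.4% ± 0.784 and 88.6% ± 5.48 in F1r, on the Peg3 side throughout. With the second number as a block, the adult difference between crosses was -0.22 ± 0.12 for Gnas (edgeR adjusted p = 0.43) and -0.05 ± 0.11 for Nespas (edgeR adjusted p = 0.88), while 77 genes were called in place of 15.

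The genes around the locus lay much closer to equal use of both copies than Gnas and Nespas did, with small called effects on the Meg3 side only. In chromosomal order the tables held Zbp1, Pmepa1, Rab22a, Vapb, Stx16 and Npepl1 before Nespas and Gnas, and Nelfcd, Ctsz, Atp5e, Prelid3b, Zfp831, Edn3, Phactr3 and Sycp2 after them. Of these 14 neighbours, 10 were tested at P5, 11 at P15 and 11 in adults. The parental effect was called on the Meg3 side for 2 neighbours at P5, 0 at P15 and 4 among adults, while 2.34%, 0.458% and 2.26% of all tested genes were called on that side. On the Peg3 side 0 were called at each age, where 0.365%, 0.283% and 0.45% of all genes were. The medians of the neighbours were 0.08, 0.07 and 0.10 against 0.0 for all genes. Stx16, which encodes a syntaxin of endosome to Golgi transport, had the largest effect, 0.34 ± 0.04 at P5 (edgeR adjusted p = 9.2e-10) and 0.15 ± 0.02 in adults (edgeR adjusted p = 8.8e-05). The CAST share of Stx16 was 53.3% ± 1.78 in F1i and 41.6% ± 1.59 in F1r at P5, 51.2% ± 3.67 and 49.1% ± 3.89 at P15, and 51.3% ± 2.54 and 46.6% ± 1.24 in adults. The effect of Stx16 fell by 0.25 ± 0.06 from P5 to P15 (edgeR adjusted p = 0.042), a called change.

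Small effects were called for 3 other neighbours. Vapb, which encodes a membrane protein of the endoplasmic reticulum, had 0.08 ± 0.02 at P5 (edgeR adjusted p = 0.017) and 0.07 ± 0.02 in adults (edgeR adjusted p = 0.0050). Prelid3b had 0.14 ± 0.02 in adults (edgeR adjusted p = 8.9e-05), and Rab22a, a small GTPase of endosomes, had 0.10 ± 0.02 (edgeR adjusted p = 0.0093). The CAST share of Prelid3b in adults was 53.1% ± 1.93 in F1i and 48.4% ± 1.42 in F1r, and that of Rab22a was 45.8% ± 1.81 and 42.2% ± 1.55. These effects lie on the Meg3 side, as the Nespas counts do, and are far smaller than the effects of the 2 imprinted genes. Npepl1, the measured gene next to Nespas, had a CAST share of 54.6% ± 6.18 in F1i and 49.6% ± 3.31 in F1r at P5, and Nelfcd, the measured gene next to Gnas on the other side, had 52.4% ± 2.82 and 55.0% ± 3.35. Neither was called at any age. Atp5e, a subunit gene of the mitochondrial ATP synthase, Pmepa1, Ctsz and Phactr3 were tested at each age and not called, nor was Edn3 where it was tested. Zbp1, Zfp831 and Sycp2 had too few counts to test.

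**Figure D4:**
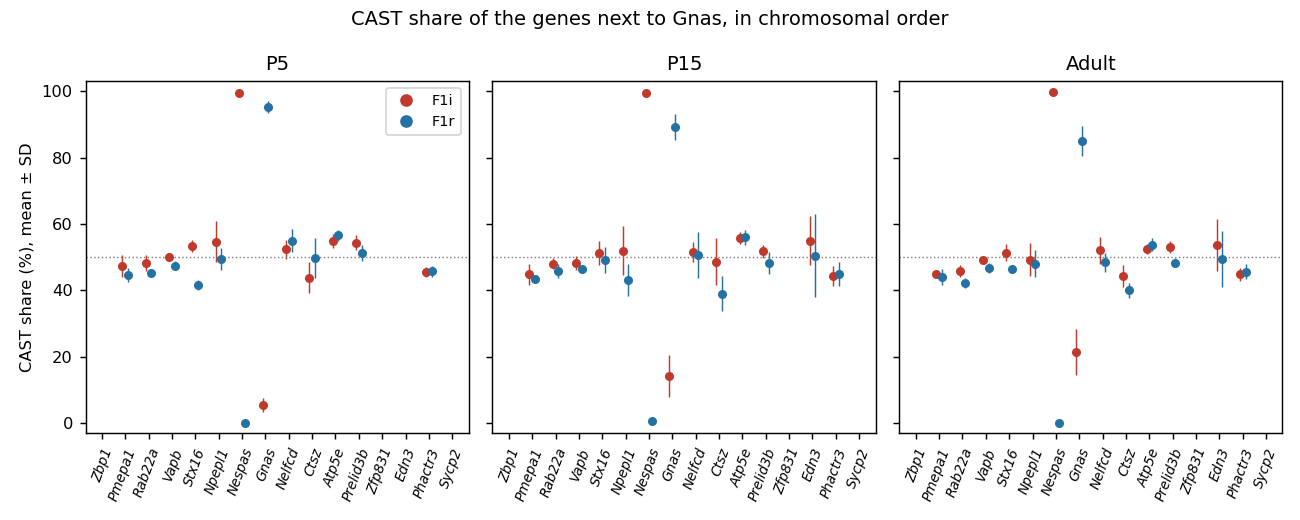
CAST share, in percent (mean ± SD over the libraries of a cross), of Nespas, Gnas and the measured genes around them at each age, in chromosomal order with equal spacing; genes with too few counts have no point, and the dotted line is 50%. Nespas and Gnas stand at opposite ends of the scale in the 2 crosses. The group means of the neighbours run from 39.0% (Ctsz, F1r at P15) to 56.6% (Atp5e, F1r at P5), with Stx16 at 53.3% and 41.6% at P5.

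Beside other imprinted genes, the preference of Gnas lay closer to 0 than the median of the paternally expressed list and that of Nespas farther from 0 than the median of the maternally expressed list, at each age. The 12, 11 and 10 tested genes of the maternally expressed list at P5, P15 and in adults were all called on the Meg3 side, with medians of 4.08, 4.05 and 3.16, and the 15, 16 and 16 genes of the paternally expressed list were all called on the Peg3 side, with medians of -6.47, -6.22 and -6.94. The median of all tested genes was 0.0. These lists hold genes whose imprinting is known, and were chosen with earlier results of these data known. They include Meg3 and Peg3, which set the sides, so the direction of both was fixed in advance. The direction of the lists is therefore not an independent check of the crosses. Meg3 itself had 8.24, 7.42 and 8.11, near the values of Nespas, and Peg3 had -8.21, -7.54 and -8.90. Peg10, another paternally expressed gene, had -8.21, -8.10 and -9.17. Ube3a, a ubiquitin ligase gene known to be silenced on the paternal copy in neurons, had 1.36, 0.34 and 1.03, and H19, a maternally expressed noncoding RNA, had 5.25 and 4.93 at P5 and P15. From P5 to adulthood the parental effect changed in 6 of 10 maternally and 6 of 15 paternally expressed genes, beside 0.258% of all genes. Among them Inpp5f moved toward 0 by 2.63 ± 0.04 (edgeR adjusted p = 4.6e-55) and Mest by 3.39 ± 0.13 (edgeR adjusted p = 5.5e-33). Grb10 moved away from 0, by -2.06 ± 0.12 (edgeR adjusted p = 2.4e-22). A move of the parental effect toward 0 with age was thus seen at Gnas and at some but not all genes of the paternally expressed list.

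**Figure D5:**
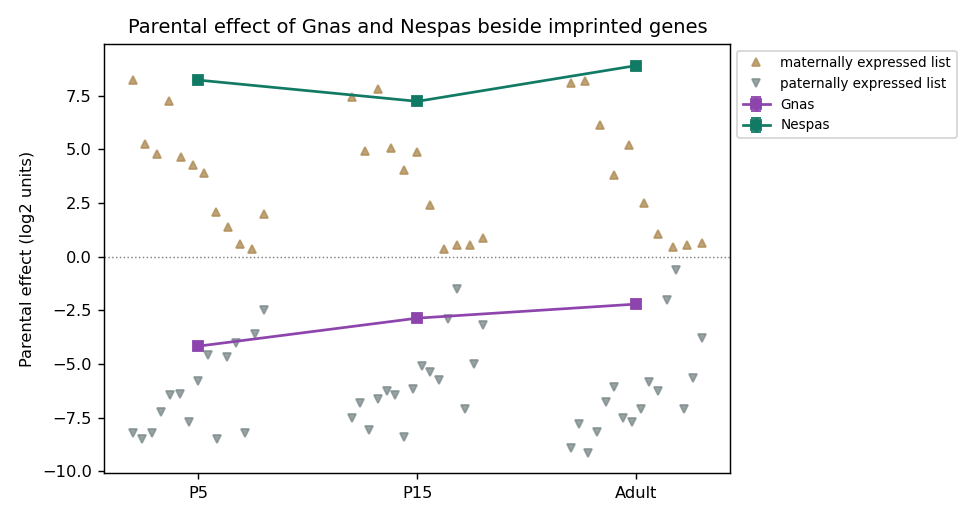
Parental effect in log2 units at P5, P15 and in adults for Gnas and Nespas (squares, joined by lines, with SE bars smaller than the symbols) and for the tested genes of the maternally expressed (upward triangles) and paternally expressed (downward triangles) lists; values above 0 lie on the Meg3 side. Gnas moves from -4.17 to -2.21 and Nespas lies between 7.23 and 8.90. The SE bars come from the F statistic and understate the counting error of Nespas and, at P5 and P15, of Gnas.

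The genes most like each member were ranked over all 46 libraries. By mean absolute difference in CAST share among 11646 genes, the nearest to Gnas was Inpp5f, an inositol phosphatase gene with an imprinted brain transcript, at 3.83 percentage points. Its CAST share was 3.77% ± 0.404, 11.96% ± 1.15 and 19.7% ± 1.35 in F1i and 96.2% ± 0.676, 88.3% ± 0.941 and 79.8% ± 0.770 in F1r at P5, P15 and in adults, close to Gnas at each age. Gm16044, Mcts2, Grb10 and Dlk1 followed at 7.31, 9.66, 10.1 and 10.3 points. Nearest to Nespas were an unnamed gene, ENSMUSG00000091793, at 0.369 points, Meg3 at 0.421, Kcnk9, a maternally expressed potassium channel gene, at 0.508, a second unnamed gene, ENSMUSG00000091158, at 0.625, and Mir1188 at 0.880. The 46 libraries share 2 crosses and 3 ages, so these values are a description.

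By Pearson correlation of log2 CPM among 13637 genes, Gnas was most like Tsc22d1 (r = 0.92), Kctd5, Gipc1, Fyn and Dctpp1 (r = 0.91 each). Nespas was most like Tsc22d4, Mt3, a metallothionein gene of astrocytes and neurons, and Itgb3bp (r = 0.91 each), and 6330403K07Rik and Slc25a18, a mitochondrial glutamate carrier gene (r = 0.90 each). They too are given as a description without a test.

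No parental effect was called in the Gs pathway around Gnas. Among the tested genes of the other G protein α subunits (10, 10 and 11 at P5, P15 and in adults), β and γ subunits (11 at each age), Gs-coupled receptors (14, 13 and 17), adenylyl cyclases (9, 8 and 8), protein kinase A and Epac genes (10, 11 and 11), cyclic AMP phosphodiesterases (13 at each age) and regulators of Gs (8, 8 and 9), 0 were called at any age, beside 2.71%, 0.742% and 2.71% of all tested genes, so a count of 0 is near the share of all genes. The protein kinase A and Epac list also holds the transcription factor genes Creb1, Crem and Atf1. The medians of the lists lay between -0.01 and 0.02. Gnal, which encodes Golf, the α subunit closest to Gsα, had 0.01 ± 0.01 at P5, -0.00 ± 0.02 at P15 and 0.02 ± 0.01 in adults.

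With age the pathway genes did change in level, as did most genes, and here too age cannot be told apart from a batch. From P5 to P15, 9 of 11 α subunit genes fell and 1 rose, and 8 of 9 adenylyl cyclase genes fell and 0 rose, where 42.5% of all genes rose and 40.9% fell. The medians of these lists were -0.83 and -0.68 against 0.02 for all genes. Gnal had 749.7 ± 29.4 CPM at P5 (mean ± SD, n = 14), 346.5 ± 58.2 CPM at P15 (n = 14) and 600.6 ± 34.5 CPM in adults (n = 18). It fell by 1.15 ± 0.06 (edgeR adjusted p = 4.6e-23) and then rose by 0.85 ± 0.06 (edgeR adjusted p = 2.7e-18). Gnaq, whose product couples receptors to phospholipase C, fell by 1.24 ± 0.05 (edgeR adjusted p = 1.2e-26) and then rose by 0.72 ± 0.05 (edgeR adjusted p = 8.3e-18).

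From P15 to adulthood 9 of 11 α subunit genes rose and 1 fell, and 8 of 9 cyclase genes rose and 1 fell, where 37.0% of all genes rose and 37.7% fell. The medians were 0.58 and 0.35 against -0.01 for all genes. With RLE size factors or library totals the medians of both lists kept their signs over both intervals. Gnas fell over that interval, as did Gnai3, an inhibitory α subunit gene, at -0.66 ± 0.05 (edgeR adjusted p = 2.4e-15). From P5 to adulthood 1 of 11 α subunit genes rose and 7 fell, where 40.6% of all genes rose and 41.5% fell. The 1 that rose was Gna13, by 0.53 ± 0.03 (edgeR adjusted p = 1.7e-19), which was named after its value was seen. Gnal stood at -0.30 ± 0.06 (edgeR adjusted p = 3.6e-06), Gnaz at -0.82 ± 0.06 (edgeR adjusted p = 6.0e-17) and Gnai3 at -0.85 ± 0.05 (edgeR adjusted p = 2.7e-20), beside -1.41 for Gnas. These differences between genes were not tested, and a Gnas count does not measure Gsα alone.

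The other steps of the pathway changed in both directions from P5 to P15, with counts to be read beside the 42.5% of all genes that rose and the 40.9% that fell. Of the β and γ subunit genes, 5 of 11 rose and 5 fell, with Gnb5 higher by 0.71 ± 0.04 (edgeR adjusted p = 7.7e-23) and Gng2 lower, at -0.76 ± 0.05 (edgeR adjusted p = 8.4e-21), which as counts are near the shares of all genes. Of the Gs-coupled receptor genes, 6 of 22 rose and 9 fell. Gpr12, an orphan receptor gene, fell by 0.98 ± 0.07 (edgeR adjusted p = 3.0e-17), and Crhr2, the gene of a receptor for urocortins, rose by 0.64 ± 0.08 (edgeR adjusted p = 3.0e-10). Among the cyclases Adcy1, a calcium-stimulated form, fell by 2.38 ± 0.07 (edgeR adjusted p = 1.2e-34). In the protein kinase A and Epac list, which also holds the transcription factor genes Creb1, Crem and Atf1, 5 of 11 genes rose and 4 fell. Creb1 and Crem were among those that rose, by 0.50 ± 0.07 (edgeR adjusted p = 2.1e-09) and 1.25 ± 0.15 (edgeR adjusted p = 1.3e-10). Prkar2b, a regulatory subunit gene, fell by 1.49 ± 0.06 (edgeR adjusted p = 9.6e-29), and Prkar1a, another, rose by 0.70 ± 0.03 (edgeR adjusted p = 1.4e-24).

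Of the phosphodiesterase genes, whose products degrade cyclic nucleotides, 5 of 13 rose and 7 fell from P5 to P15, beside 42.5% and 40.9% of all genes. Pde1a rose by 1.08 ± 0.05 (edgeR adjusted p = 4.2e-25), and Pde8a rose by 0.45 ± 0.07 (edgeR adjusted p = 1.6e-07) and then by 1.09 ± 0.06 to adulthood (edgeR adjusted p = 7.5e-22). Of the 9 regulators of Gs signalling, 2 rose and 7 fell from P5 to P15. Rgs2, which encodes a regulator of G protein signalling, rose by 0.99 ± 0.05 (edgeR adjusted p = 2.3e-22), and the arrestin gene Arrb2 fell by 1.06 ± 0.07 (edgeR adjusted p = 6.5e-19).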

How the data were processed

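RNA of the dorsal raphe nucleus was prepared with a Qiagen column kit and sequenced as 50 bp single-end reads of TruSeq libraries, per the labels. The authors deposited whole-number counts per gene and allele in 3 tables, and the submitters' processing notes name Novoalign and mm9. Allele assignment, strand, multi-mapping reads and filters are not given in the sources used here. All 92 columns were matched to 46 libraries by name, and symbols, gene models and sequences came from GENCODE M21 (GRCm38), which names 14969 of the 15499 identifiers. The tables hold no coordinates.

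The members and lists were chosen with earlier results of these data known. Allele effects were fitted per age with edgeR 4.0.16 (quasi-likelihood, R 4.3.3), with 1 column for each library and allele, a term for each library, on genes whose summed count averaged at least 20. Changes with age used 1 model of all libraries. Summed counts and single sides used TMM scaling and filterByExpr. p-values were adjusted by Benjamini-Hochberg over all genes tested, with a threshold of 0.05. Shares of single libraries have 95% Wilson intervals, which cover counting error only. DESeq2 1.42.0, limma 3.58.1, other scaling, no filter, a replicate block and leave-one-out were alternatives. Scripts were tested on simulated data. Replicate numbers did not pair libraries at P5 (correlations of same-numbered deviations -0.09 to 0.08) or P15 (-0.41 to 0.75). In adults the second label number did pair levels (0.52 to 0.80 for 3 numbers), so blocked adult values are given. Genes were named by rule: both members, every measured neighbour, Meg3, Peg3, Peg10, H19 and Ube3a, the 5 most alike genes by each measure, and from each pathway list genes among the 4 with the smallest p over all age contrasts and parental tests. Mest, Inpp5f, Grb10, Creb1 and Crem changes with age were named after their values were seen, and Atf1 was named to describe its list.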

Additional observations from a re-analysis of the deposited data

Results flagged for a closer look

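In F1r adults, 1 library (first number 5, second number 3) had a CAST share of 94.8% for Gnas, far from the other 8, which lay between 79.6% and 87.0%. In F1r at P5, replicate 2 had a CAST share of 0.714% for Nespas where the other 6 had 0, a difference of 1 count. Among 24 groups tested in this way, 1.2 are expected by chance. The parental effect of Gnas differed between ages, by 1.30 in log2 units from P5 to P15 and by 1.97 from P5 to adulthood.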

How the results depend on the processing

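Across 54 results and 762 alternative values, 11 results changed direction or side of the threshold under some alternative; the cause was not tested. With the replicate block, the change of the Nespas parental effect from P5 to adulthood was -0.32 in place of 0.52, and the Nespas strain effect at P5 was -1.03 and called; it changed no other call. With limma, the Nespas parental change was 0.00 from P5 to P15 in place of -1.04, and 1.08 and 1.08 up to adulthood, both called. DESeq2 gave 0.30 for the Gnas strain effect in adults, not called. Leaving out 1 replicate number at a time (both crosses at P5 and P15, 1 first or 1 second number in adults, the second added after the data were seen) gave -0.29 to 0.01 for the Gnas cross effect at P15, 0.19 to 0.44 for the adult Gnas strain effect, -0.10 to 0.04 for the adult Nespas cross effect, -1.59 to -0.63 for the Nespas strain effect and -0.31 to -0.26 for the Nespas cross effect at P5. For changes with age this was run with limma only, not with edgeR: it gave 0.90 to 1.25, 0.90 to 1.26 and -0.14 to 0.10 for the Nespas parental change (from P15 and from P5 to adulthood, and from P5 to P15), -0.05 to 0.21 and 0.44 to 0.69 for the Nespas strain change (from P5 to adulthood and to P15), and -0.01 to 0.21 for the Gnas strain change from P5 to P15. The called parental changes of Gnas remained called, at 1.14 to 1.41 and 1.82 to 2.07. Genes called for a parental effect numbered 327 at P5 and 344 in adults, against 120 and 138 with DESeq2 and 110 and 90 with limma. For its change with age limma called 36 from P5 to P15 and 28 from P15 to adulthood, in place of 20 and 16. For the adult cross effect, 15 genes were called, against 53 with DESeq2, 77 with the block and 306 with libraries summed over the first number. Few minor-allele counts limit Nespas ratios and single-library Gnas shares.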
